A study of Caenorhabditis elegans with 9 samples.

Results

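The aspartic and cathepsin proteases of C. elegans were followed by RNA sequencing in whole larvae collected during L4 lethargus, a sleep-like state that precedes the final molt. Members were all genes named asp, cpr, cpl or cpz with a number in the deposited read table, which gave 29 of 46699 genes. They were 19 aspartic protease genes (asp) and 10 genes of papain-type cysteine cathepsins, of which 7 were cpr (cathepsin B-like), 1 was cpl-1 (cathepsin L) and 2 were cpz (cathepsin Z). The 3 groups were nas-38(ok3407) animals of strain HBR1010, nas-38(tm2655) animals of strain HBR1114 and wild type animals of strain N2, with 3 biological replicates each per the labels. nas-38 encodes a secreted astacin metalloprotease. The headers of the deposited tables call ok3407 a gain of function and tm2655 a loss of function. All groups were grown on E. coli OP50, bleach-synchronised and picked by hand while asleep. Each mutant group was a single strain, and the number of animals per library is not given in the sources used here.

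Aspartic proteases and cathepsins are made as inactive precursors that mature at low pH, mostly in lysosomes, where the V-ATPase pumps in protons. Aspartic proteases of the cathepsin D type cut with a pair of aspartates, while cathepsins B, L and Z cut with a cysteine and are held back by cystatins. In C. elegans many of these enzymes are made in the intestine, whose cells are rich in lysosome-related gut granules and digest bacteria. Some also act elsewhere, in yolk breakdown, in molting and in the death of neurons by necrosis.

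Libraries held 13.8 to 40.5 M gene reads (M, megareads). nas-38 itself had 227, 375 and 337 CPM (gene reads scaled to library size with TMM factors) in ok3407, 10.04, 14.4 and 7.56 CPM in tm2655, and 134, 57.9 and 65.1 CPM in wild type, so the 3 groups did not overlap. Against wild type it was higher in ok3407 by 1.87 on the log2 scale (edgeR, adjusted p = 0.0265), and tm2655 differed by -3.004 without passing (0.316). The first principal component of log2 CPM over the tested genes held 38.8% of the variance, and the ok3407 libraries scored -67.1 to -47.0 on it and the other 6 libraries -1.33 to 51.3. On the third component, with 11.9% of the variance, tm2655 replicate 1 scored 66.1 and the other 8 libraries lay between -20.1 and 5.32. Calls of members that change without that library are given below with and without it. The gene lists and the counts of non-overlapping groups were taken with all 9 libraries only.

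The proteases were an abundant group of transcripts. They took up 0.971%, 0.901% and 0.933% of all gene reads in the ok3407 libraries, 1.18%, 1.11% and 1.37% in the tm2655 libraries, and 1.099%, 0.979% and 1.26% in the wild type libraries. All 3 ok3407 shares were below all shares of the other groups. The aspartic proteases alone held 0.598% to 0.723% of the reads in ok3407, 0.891% to 1.11% in tm2655 and 0.802% to 1.04% in wild type, again without overlap. The cathepsins held 0.247% to 0.303% in ok3407, 0.199% to 0.254% in tm2655 and 0.177% to 0.232% in wild type. Without cpl-1 the cathepsin shares were 0.125% to 0.182% in ok3407, 0.153% to 0.212% in tm2655 and 0.122% to 0.174% in wild type, which overlap. On the TMM scale the cathepsins with cpl-1 overlapped as well, with 0.228% to 0.272% in ok3407, 0.196% to 0.273% in tm2655 and 0.172% to 0.258% in wild type. The aspartic proteases did not overlap on that scale, with 0.538% to 0.670% in ok3407, 0.925% to 1.19% in tm2655 and 0.781% to 1.17% in wild type. The shares were not tested.

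**Figure D1:**
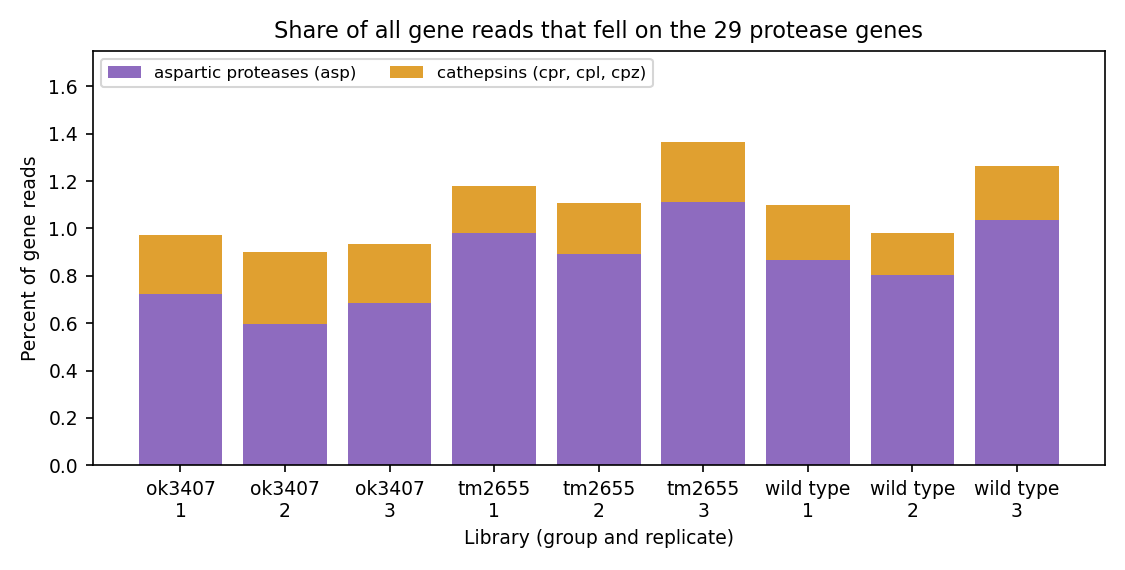
Share of all gene reads, in percent, that fell on the 29 protease genes in each of the 9 libraries, split by family. The whole bar is shorter in the 3 ok3407 libraries (0.901% to 0.971%) than in the 3 wild type libraries (0.979% to 1.26%).

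Levels between genes were compared as deposited RPKM, which scales exon reads to exon length and library size for members with exons. Of the 29 genes, 14 had a mean above 100 RPKM over the 9 libraries, 7 lay between 1 and 100, and 8 lay below 1. The order was led by asp-1, a lysosomal aspartic protease of intestinal cells, with 1578 ± 163 RPKM in ok3407, 2607 ± 499 in tm2655 and 2322 ± 471 in wild type (SD, n = 3 each). The cathepsin D-like asp-3, which together with asp-4 is needed for necrotic neuron death, came next with 950 ± 101 RPKM in ok3407, 1408 ± 115 in tm2655 and 1376 ± 189 in wild type. asp-6 followed with 763 ± 68.7 RPKM in ok3407, 1149 ± 233 in tm2655 and 971 ± 125 in wild type. These were aspartic proteases, and the first cathepsin in the order was cpl-1. cpl-1, which is essential in embryos and acts in yolk processing, had 969 ± 87.5 RPKM in ok3407, 422 ± 89.7 in tm2655 and 526 ± 96.9 in wild type. In ok3407 the means of cpl-1 and asp-3 differed by less than their SD, whereas in wild type the mean of cpl-1 was below that of asp-3 by more than their SDs. The 8 most abundant members were completed by asp-5, asp-2, cpr-6 and asp-4, with wild type means of 563 ± 40.4, 447 ± 58.8, 396 ± 84.4 and 270 ± 41.3 RPKM. In wild type the neighbours cpl-1 and asp-5, and likewise asp-2 and cpr-6, differed by less than their SDs.

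**Figure D2:**
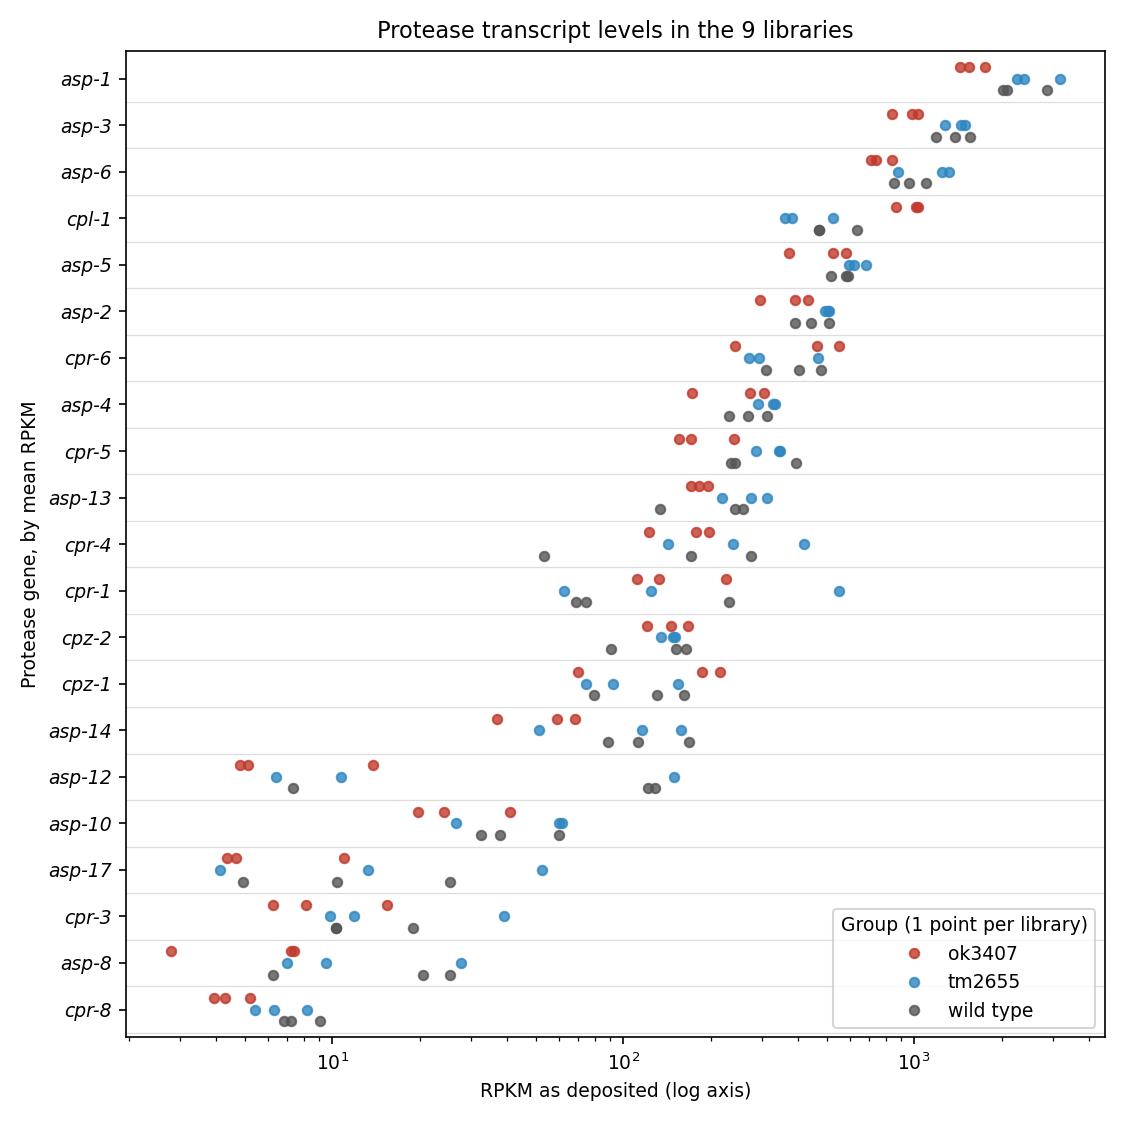
Deposited RPKM on a log axis of the protease genes with a mean of at least 1 RPKM, with 1 point per library, colors for the groups and genes ordered by mean. asp-1, asp-3, asp-6 and cpl-1 lead, and the 8 genes below 1 RPKM are not drawn.

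Most of the genes lie on one chromosome. On the deposited coordinates, whose build is not named, 23 of the 29 were on chromosome V, which is 79.3% of them, against 25.6% of the 18202 protein-coding genes matched by name in WBcel235. asp-3, asp-4, asp-14 and cpr-6 were on X, asp-9 on IV and cpz-1 on I. asp-6, asp-12, asp-5 and asp-11 follow one another on V between 8267614 and 8275757, with wild type means of 971, 85.9, 563 and 0 RPKM, so direct neighbours differ widely in level. asp-17, asp-16, asp-15 and asp-1 lie between 19035753 and 19050752 on the minus strand, and in wild type asp-1 had 2322 RPKM where asp-17 had 13.6, asp-15 had 0.0197 and asp-16 had 0. cpr-5 and cpr-8 lie head to head with 671 bases between their starts, and had 290 ± 89.7 and 7.69 ± 1.21 RPKM in wild type. asp-1 is annotated with 1 exon, yet 8.59% of its reads were counted outside exons.

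In ok3407 against wild type, asp-3 and cpr-8 were called lower by the edgeR test, and none of the tested members was called higher. Of the 23 members that passed the filter on low counts, 2 were called lower (8.70%) against 2.91% of the 16055 genes tested, and 0 were called higher against 3.33%. At an unadjusted p under 0.05, 9 were lower, against 11.5% of all genes, and 2 higher, against 12.1%. DESeq2 called 6 members lower, against 5.75% of the 17092 genes it gave an adjusted p. They were asp-1, asp-3, asp-8, asp-14, cpr-5 and cpr-8. It called 2 higher, cpl-1 and asp-11, against 5.74%. The 2 higher at an unadjusted p were the same genes. asp-11 had 0 reads in wild type and could enter these counts only as higher. Benjamini-Hochberg adjustment ran over all genes tested.

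asp-3 (chromosome X, 6791191 to 6792571, plus strand, 4 exons) had 1241, 1030 and 1285 CPM in ok3407, 1921, 1779 and 2158 CPM in tm2655, and 2021, 1563 and 2375 CPM in wild type. All ok3407 libraries lay below all others. It fell in ok3407 against wild type by 0.74 ± 0.17 on the log2 scale (edgeR, SE, adjusted p = 0.0379), which is 1.68-fold. cpr-8 (V, 1134626 to 1139171, plus strand), a cathepsin B-like gene at a low level, had 5.43, 3.85 and 4.501 CPM in ok3407, 6.64, 9.42 and 6.43 CPM in tm2655, and 10.6, 7.61 and 8.83 CPM in wild type. The ok3407 and wild type libraries did not overlap, and the change was -0.97 ± 0.24 (edgeR, SE, adjusted p = 0.0451). The asp-3 call held without tm2655 replicate 1 (adjusted p = 0.0475) and without wild type replicate 2 (0.0245) and was lost without each other library (edgeR, adjusted p 0.0539 to 0.149). The cpr-8 call held only without tm2655 replicate 1 (0.0480) or tm2655 replicate 2 (0.0499), and was lost without each other library (0.0526 to 0.145). asp-3 also missed the threshold with limma-trend on RPKM (0.0525) and with the 6 libraries alone (0.0716), and cpr-8 with these and 3 other settings (0.0541 to 0.0931).

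The other leading aspartic proteases had lower means in ok3407 than in wild type, and none of them passed the edgeR test. DESeq2 called asp-1 of these lower against wild type (adjusted p = 0.0207). asp-1 (V, 19049562 to 19050752, minus strand) had 2283, 1810 and 1932 CPM in ok3407, 3201, 3208 and 4634 CPM in tm2655, and 3080, 2710 and 4417 CPM in wild type. The ok3407 libraries were all below the others, and the change against wild type was -0.76 ± 0.22 (edgeR, SE, adjusted p = 0.0756). asp-6 (V, 8267614 to 8268935, minus strand) had 1034, 844 and 881 CPM in ok3407, 1596, 1188 and 1818 CPM in tm2655, and 1352, 1094 and 1624 CPM in wild type. Its ok3407 libraries also lay below the rest, with a change of -0.56 ± 0.20 (edgeR, SE, adjusted p = 0.125). The deposited model of asp-2 (V, 9199680 to 9204645, plus strand, 10 exons) starts 3397 bases upstream of asp-2 in WBcel235, and its counts are those of the deposited model. A pseudogene of WBcel235 covers most of that model, with starts 185 bases apart. All of asp-2 in WBcel235 but its last 89 bases lies within the model too, so the model overlaps both. The RPKM of asp-2 rests on the exon length of the deposited model, 1908 bases. asp-2 had 822, 547 and 726 CPM in ok3407, 1018, 1035 and 1093 CPM in tm2655, and 967, 777 and 1160 CPM in wild type, and ok3407 overlapped wild type. asp-5 had 736, 450 and 647 CPM in ok3407, 893, 824 and 879 CPM in tm2655, and 857, 678 and 875 CPM in wild type, with overlap as well. asp-4, the other cathepsin D-like gene of necrotic neuron death, had 243, 368 and 418 CPM in ok3407, 483, 500 and 466 CPM in tm2655, and 511, 337 and 452 CPM in wild type. The changes of asp-2, asp-5 and asp-4 against wild type were -0.47, -0.40 and -0.34 (edgeR, adjusted p = 0.164, 0.232 and 0.368).

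Among the cathepsins, cpl-1 (V, 16592747 to 16595345, minus strand, 5 exons) had its higher values in ok3407. It had 1133, 1083 and 928 CPM in ok3407, 435, 633 and 447 CPM in tm2655, and 801, 538 and 613 CPM in wild type. Every ok3407 library lay above every wild type and tm2655 library, and the change against wild type was 0.69 ± 0.20 (edgeR, SE, adjusted p = 0.0710). cpr-5 (V, 1132686 to 1133954, minus strand), cathepsin B-like, had 280, 178 and 191 CPM in ok3407, 411, 368 and 454 CPM in tm2655, and 330, 281 and 538 CPM in wild type. Its highest ok3407 library came within about 1 CPM of the lowest wild type library, and the change was -0.82 ± 0.26 (edgeR, SE, adjusted p = 0.0911). cpr-6 had 276, 603 and 514 CPM in ok3407, 348, 582 and 348 CPM in tm2655, and 623, 475 and 420 CPM in wild type, which overlapped throughout (log2 -0.12 ± 0.31, edgeR, SE, adjusted p = 0.852).

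**Figure D3:**
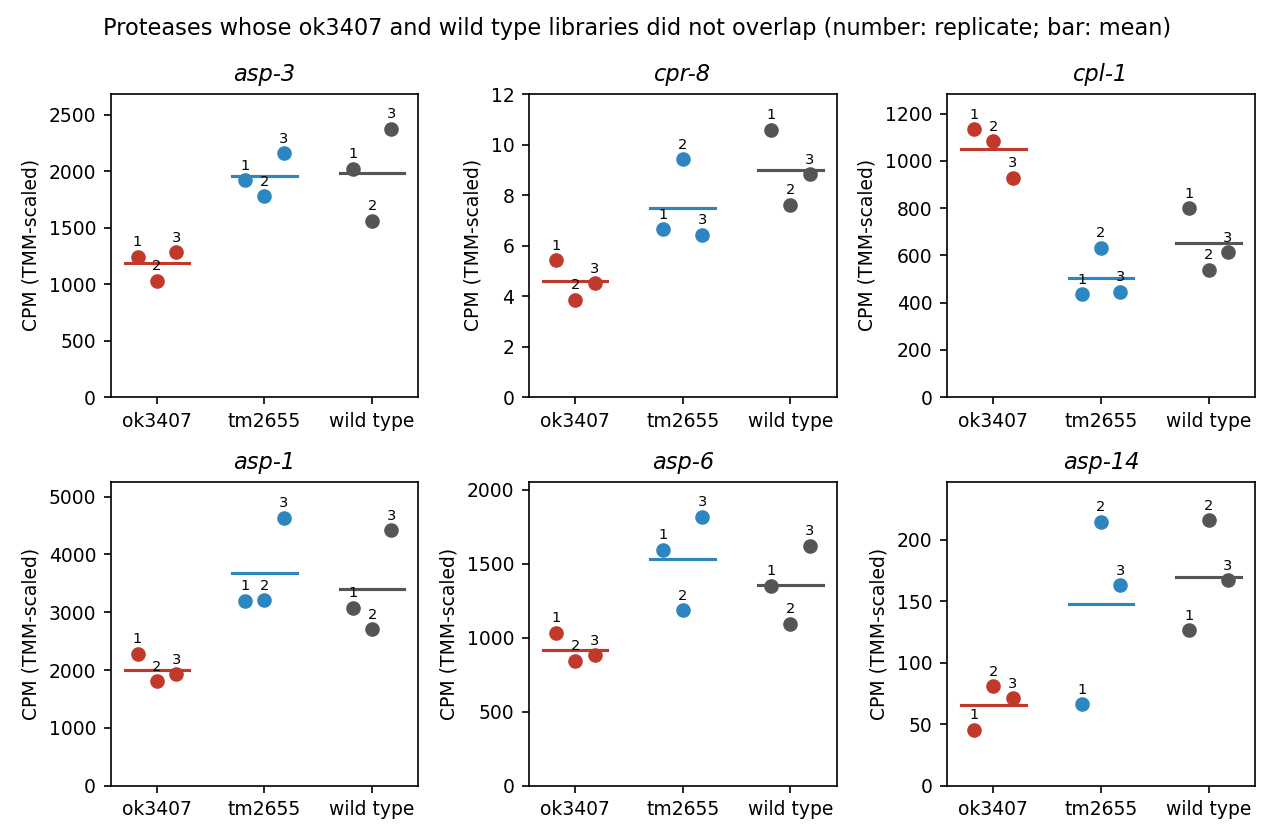
TMM-scaled CPM of asp-3, cpr-8, cpl-1, asp-1, asp-6 and asp-14 in each library by group, numbers giving the replicate and bars the mean. In cpl-1 the ok3407 libraries are above both other groups, while in the other 5 they lie below wild type.

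Across the 23 tested members, ok3407 was lower than wild type in 18 of 23 by fitted change, against 47.1% of all genes. Without scaling factors it was 15 of 23, with a member median of -0.24 and a median of all genes of 0.24. The median change was -0.47 for the members and 0.03 for all genes, with -0.65 for the aspartic proteases and -0.12 for the cathepsins. The ok3407 and wild type libraries did not overlap in 7 members that were lower (against 14.5% of all genes) and in 2 that were higher (against 14.4%). The 7 were asp-1, asp-3, asp-6, asp-8, asp-14, cpr-5 and cpr-8, and the 2 were cpl-1 and asp-11. asp-11 is a pseudogene in WBcel235 and passed the filter only through the mutants, so it could be counted only as higher. Its deposited model has 0 exons, and all of its 64 reads were counted outside exons. It had 38 reads in ok3407, 26 in tm2655 and 0 in wild type, which is at least 8.08-fold higher in ok3407 than 3 reads over the wild type group would give.

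ok3407 and tm2655, the alleles labelled as opposite, differed in cpl-1. It was higher in ok3407 than in tm2655 by 1.05 ± 0.20 on the log2 scale (edgeR, SE, adjusted p = 0.0186), a 2.08-fold difference, and the libraries did not overlap. That was 1 of 23 members called higher, against 2.33% of all genes, and 0 were called lower, against 1.69%. At an unadjusted p under 0.05, 12 members were lower, against 9.53% of all genes, and 1 was higher, against 8.11%. DESeq2 called 5 members lower (asp-1, asp-3, asp-6, asp-14 and cpr-5), against 4.23% of the genes it gave an adjusted p. It called 1 higher, cpl-1, against 4.2%. Without tm2655 replicate 1 the cpl-1 difference was 0.96 (edgeR, adjusted p = 0.0535), without tm2655 replicate 3 it was 0.97 (0.0885) and without ok3407 replicate 2 it was 1.02 (0.0700), and the call held without each of the other libraries. The difference was -0.72 in asp-3 (edgeR, adjusted p = 0.0532), -0.87 in asp-1 (0.0609), -0.74 in asp-6 (0.0714) and -0.93 in cpr-5 (0.0806). The ok3407 and tm2655 libraries did not overlap in 10 members that were lower (against 12.3% of all genes) and in 1 that was higher (against 11.2%). The fitted difference was below 0 in 18 of 23 members, against 48.7% of all genes, and in 17 of 23 without scaling factors. The median difference was -0.72 for members and 0.01 for all genes, with -0.73 for the aspartic proteases and -0.71 for the cathepsins. This comparison and the one with wild type share the ok3407 libraries, so they are not independent of each other.

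In tm2655 against wild type, 0 members were called in either direction by edgeR and 0 by DESeq2. Of all genes edgeR called 0.00623% higher and 0% lower, and DESeq2 0.00914% in each direction. At an unadjusted p under 0.05 there was 1 member, asp-11, which was higher, against 1.82% of all genes higher and 0.654% lower, and the smallest adjusted p among members was 0.998. With 0 reads in wild type, asp-11 could enter these counts only as higher. With the filter of 5 CPM in 3 libraries, which asp-11 did not pass, the smallest unadjusted p among members was 0.104 (edgeR). tm2655 and wild type did not overlap in 1 member that was higher, again asp-11 (against 3.85% of all genes), and in 0 that were lower (against 2.62%). The fitted change was below 0 in 9 of 23 members, against 47.6% of all genes, and its median was 0.11 for members and 0.01 for all genes. cpl-1 changed by -0.37 ± 0.20 and asp-3 by -0.02 ± 0.17 (edgeR, SE, adjusted p = 0.998 for both).

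**Figure D4:**
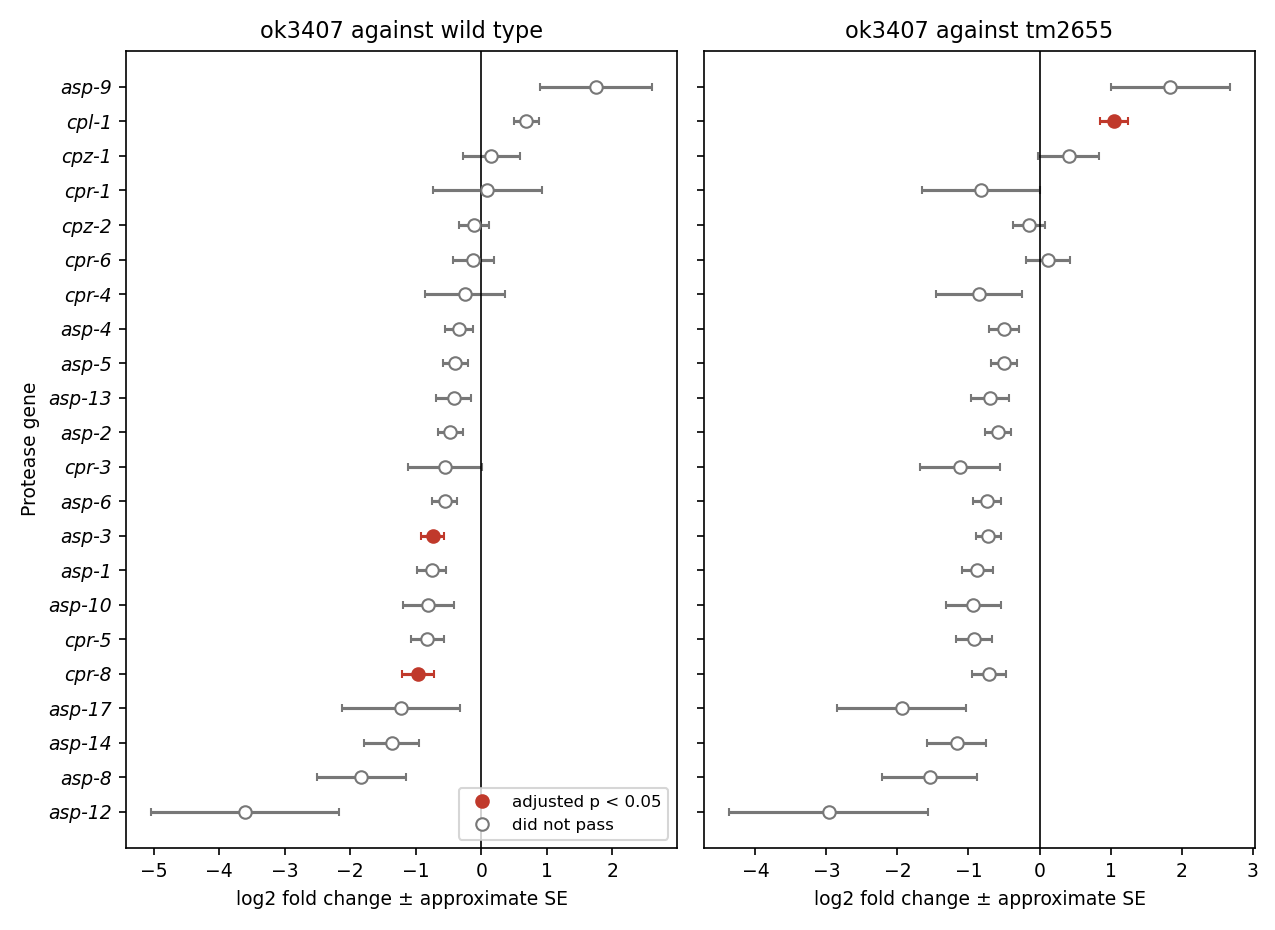
Fitted log2 fold changes with approximate SE of the tested proteases without asp-11, for ok3407 against wild type (left) and ok3407 against tm2655 (right), filled where the adjusted p was under 0.05. asp-3 and cpr-8 are filled left of 0 in the first panel, and cpl-1 is filled right of 0 at 1.05 in the second.

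The members described next were chosen after their values were seen, most of them for their spread within a group. asp-14 had 45.5, 80.7 and 71.3 CPM in ok3407, 66.1, 215 and 163 CPM in tm2655, and 126, 216 and 167 CPM in wild type, and the ok3407 and wild type libraries did not overlap. Its change against wild type was -1.37 (edgeR, adjusted p = 0.0960), and it was called lower in ok3407 against both other groups when tm2655 replicate 1 was left out. asp-12 had 17.9, 6.44 and 6.24 CPM in ok3407, 8.29, 14.7 and 215 CPM in tm2655, and 10.8, 162 and 195 CPM in wild type. Its high libraries were tm2655 replicate 3 and wild type replicates 2 and 3, and wild type replicate 1 lay within the ok3407 range. The change against wild type was -3.60 ± 1.43 (edgeR, SE, adjusted p = 0.178). asp-8 had 8.34, 3.09 and 8.68 CPM in ok3407, 11.9, 9.03 and 37.9 CPM in tm2655, and 9.96, 31.6 and 29.6 CPM in wild type, and its high libraries were those of asp-12.

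The authors' deposited table of ok3407 over wild type lists 925 genes, 647 higher and 278 lower, of which 3 are members. It gives signed fold changes of -12.2 for asp-12 (corrected p = 0.000184), -3.39 for asp-8 (0.0254) and -2.55 for asp-14 (0.000555) by the authors' EDGE test. None of these passed edgeR's quasi-likelihood test in the main fit over 9 libraries, while DESeq2 called asp-8 and asp-14. asp-14 was also called lower by edgeR with the replicate number as a block and with the 6 libraries alone. The authors' deposited table of tm2655 over wild type lists 7 genes and 0 members.

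Gut and secreted cathepsins also varied within groups. cpr-1, a gut cysteine protease, had 139, 228 and 113 CPM in ok3407, 133, 71.6 and 646 CPM in tm2655, and 81.5, 81.0 and 288 CPM in wild type. cpr-4, a secreted cathepsin B homolog known from bystander effects of radiation in C. elegans, had 203, 178 and 124 CPM in ok3407, 257, 162 and 488 CPM in tm2655, and 204, 57.5 and 339 CPM in wild type. Both were highest in tm2655 replicate 3 and next in wild type replicate 3.

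asp-17 and cpr-3 are known in C. elegans as targets of the transcription factor ZIP-10 after cold exposure. asp-17 had 5.25, 5.56 and 12.8 CPM in ok3407, 67.4, 18.02 and 5.74 CPM in tm2655, and 35.5, 12.9 and 7.67 CPM in wild type. cpr-3 had 7.66, 9.26 and 18.2 CPM in ok3407, 48.0, 15.5 and 12.8 CPM in tm2655, and 25.1, 12.3 and 14.5 CPM in wild type. Both genes were highest in tm2655 replicate 1 and next in wild type replicate 1. zip-10 had 26.6, 27.7 and 33.4 CPM in ok3407, 9.93, 15.7 and 6.12 CPM in tm2655, and 14.5, 19.6 and 8.88 CPM in wild type, with all ok3407 libraries above the others and a change against wild type of 1.02 (edgeR, adjusted p = 0.126).

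**Figure D5:**
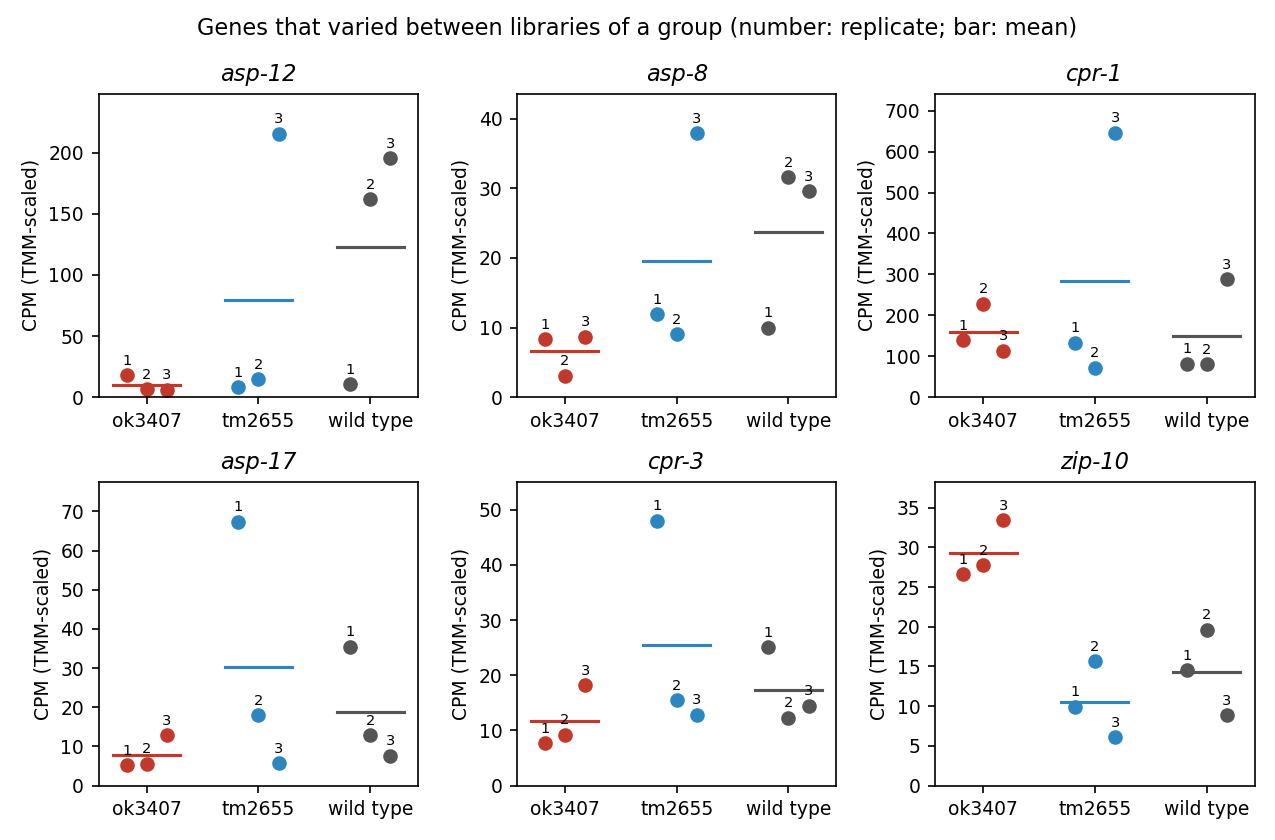
TMM-scaled CPM of asp-12, asp-8, cpr-1, asp-17, cpr-3 and zip-10 in each library by group, numbers giving the replicate and bars the mean. asp-12 and asp-8 share their 3 high libraries, and asp-17 and cpr-3 are highest in tm2655 replicate 1 and next in wild type replicate 1.

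Of the others tested, asp-10 lies at the position of hrg-7 in WBcel235, with starts 29 bases apart, an aspartic protease homolog that carries a heme signal between organs. It had 33.2, 25.9 and 54.4 CPM in ok3407, 85.4, 90.8 and 40.2 CPM in tm2655, and 93.4, 52.8 and 52.8 CPM in wild type. asp-13 averaged 224 ± 15.03 CPM in ok3407, 361 ± 77.8 in tm2655 and 300 ± 108 in wild type (SD, n = 3 each). cpz-1, a cathepsin Z known to act in molting, averaged 151 ± 71.6 CPM in ok3407, 114 ± 44.0 in tm2655 and 136 ± 44.3 in wild type. cpz-2 averaged 206 ± 29.8 CPM in ok3407, 228 ± 13.4 in tm2655 and 223 ± 73.8 in wild type. For asp-13, cpz-1 and cpz-2 the ok3407 and wild type libraries overlapped. asp-9 had 0.248, 3.65 and 0.882 CPM in ok3407, 0.245, 0.329 and 0.752 CPM in tm2655, and 0.395, 0.533 and 0.465 CPM in wild type, so its ok3407 mean rests on replicate 2.

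The 6 members that did not pass the filter were close to silent. asp-18 and asp-19 had 0 reads in every library. asp-15 had 2 reads in ok3407, 1 in tm2655 and 1 in wild type, and asp-16 had 7 reads, all in tm2655. asp-7 had 8 reads in ok3407, 38 in tm2655 and 7 in wild type, and cpr-2 had 32 in ok3407, 3 in tm2655 and 2 in wild type. Nearly all reads of the 27 members with reads were unique, at least 99.99% per gene.

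Partners of these enzymes were measured as lists of genes. Of all genes tested, edgeR called 3.33% higher and 2.91% lower in ok3407 against wild type. Against tm2655 these shares were 2.33% and 1.69%, and they stand beside the counts of every list below. Of 15 cystatins and other lysosomal proteases tested in ok3407 against wild type, 1 was called higher and 2 lower, and the median was -0.16 against 0.03 for all genes. pcp-4 and pcp-2, prolyl carboxypeptidase-like genes, fell by 2.00 and 1.85 on the log2 scale (edgeR, adjusted p = 0.00104 and 0.0370), and tag-196, a cathepsin F-like gene, rose by 0.73 (0.0294). pcp-4 averaged 24.1 ± 5.59 CPM in ok3407 and 96.4 ± 7.62 CPM in wild type (SD, n = 3 each). The cystatin cpi-1 had 158, 225 and 166 CPM in ok3407, 93.7, 49.5 and 45.1 CPM in tm2655, and 106, 40.5 and 92.6 CPM in wild type (log2 change against wild type 1.202, edgeR, adjusted p = 0.116). The cystatin cpi-2 did not share that rise. Its ok3407 and wild type libraries overlapped, with a log2 change of 0.012 (edgeR, adjusted p = 0.971). Of 21 V-ATPase subunits, 4 were lower and 0 higher, with a median of -0.41. The subunits summed to 4090 to 4402 CPM in ok3407, 5016 to 6093 CPM in tm2655 and 5051 to 6314 CPM in wild type. In that sum ok3407 overlapped neither group. The 3 with the smallest p were vha-10, vha-17 and vha-11, which fell by 0.79, 0.65 and 0.61 (edgeR, adjusted p = 0.0222, 0.0280 and 0.0357). Of 28 lysosomal hydrolases, 2 were higher and 0 were lower, with a median of 0.11. asm-1, an acid sphingomyelinase, averaged 17.5 ± 4.37 CPM in ok3407 and 9.49 ± 1.16 CPM in wild type, and gana-1, an alpha-galactosidase homolog, averaged 16.6 ± 6.44 CPM in ok3407 and 5.82 ± 1.07 CPM in wild type (edgeR, adjusted p = 0.0378 and 0.0459). Of 18 lysosomal membrane genes, spin-3 was higher by 1.64 (edgeR, adjusted p = 0.0176) and 0 were lower, with a median of 0.11. Of 12 regulators and calpains 0 were called, with a median of 0.12.

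Markers of the intestine were measured beside the proteases. Of 19 tested in ok3407 against wild type, 1 was higher and 2 lower, against 3.33% and 2.91% of all genes, with a median of -0.49. The lower genes were act-5, the actin of the gut brush border, by 1.67 and spl-1 by 0.69, and ftn-1, a ferritin, was higher by 2.52 (edgeR, adjusted p = 0.00802, 0.0451 and 0.0446). The summed level of the markers was 2608 to 3063 CPM in ok3407, 4565 to 6575 CPM in tm2655 and 4631 to 6531 CPM in wild type, so ok3407 did not overlap either group, and none of the markers was at 0. That sum is weighted by abundant genes. act-5 alone averaged 525 ± 52.4 CPM in ok3407, 1453 ± 304 in tm2655 and 1668 ± 555 in wild type (SD, n = 3 each). In ok3407 against tm2655, 4 of the 19 were lower and 0 higher, against 1.69% and 2.33% of all genes, with a median of -0.59. The 3 with the smallest p, act-5, ifo-1 and ifd-2, changed by -1.47, -0.78 and -0.88 (edgeR, adjusted p = 0.0121, 0.0405 and 0.0452). elt-2, the intestinal GATA factor, had 20.6, 21.9 and 33.7 CPM in ok3407, 16.1, 34.8 and 30.5 CPM in tm2655, and 36.8, 32.6 and 32.6 CPM in wild type. In whole animals fewer cells of a type and less RNA per cell cannot be told apart, and the part of the intestine markers in the protease values was not tested.

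Markers of other tissues were measured as well. Of 14 muscle markers, 8 were lower and 0 higher (median -0.67), against 2.91% and 3.33% of all genes. Their sum was 11849 to 13346 CPM in ok3407, 15643 to 19957 CPM in tm2655 and 16949 to 21643 CPM in wild type. The 3 with the smallest p, tnt-3, unc-54 and tnt-2, fell by 0.75, 0.74 and 0.89 (edgeR, adjusted p = 0.0181, 0.0204 and 0.0236). Of 15 epidermis markers, eff-1 and dlg-1 were higher and elt-3 was lower (median 0.18). Of 13 pharynx markers 0 were called (median -0.09), of 16 germ line markers 0 (median -0.14), and of 16 neuron markers 1, eat-4, was lower (median -0.09). Of the germ line markers, 14 had a fitted change below 0. Their sum was 3144 to 3291 CPM in ok3407, 3367 to 3775 CPM in tm2655 and 3510 to 3956 CPM in wild type. In the muscle and germ line sums ok3407 overlapped neither group, and in the epidermis, pharynx and neuron sums it overlapped both. In ok3407 against tm2655, 1 muscle marker, tnt-3, was lower (median -0.52), eff-1 and dlg-1 were higher and elt-3 was lower in the epidermis list, and 0 markers of the pharynx, germ line or neurons were called. Of the partner lists, pcp-4 was lower there by 1.69 (edgeR, adjusted p = 0.00192), and 0 V-ATPase subunits, with a median of -0.41, and 0 genes of the other partner lists were called. The other medians there were -0.20 for cystatins and other lysosomal proteases, -0.17 for hydrolases, 0.04 for membrane genes and 0.02 for regulators and calpains. In tm2655 against wild type 0 genes of any list were called.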

How the data were processed

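Stranded mRNA libraries of 9 samples were sequenced as paired-end reads, per the labels' protocols. No aligner, read counter, build or annotation is stated in the labels or headers. The authors deposited raw counts of gene reads per library, exon and intron reads together, with exon, intron and unique reads, per the file headers. RPKM values, which scale exon reads to exon length and library size, were deposited by the authors too. asp-11, whose model has 0 exons, was still given RPKM values of 0.409, 0.307 and 0.133 in ok3407, so that scaling does not hold for it. The deposited comparison tables hold the EDGE test's p-value and corrected p-value, and a score that is a signed fold change, per the file headers. The series title gives the allele as ok4307, while the sample labels, followed here, give ok3407.

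Total gene reads of 46699 genes were analysed. filterByExpr kept 16055 genes, on which edgeR's robust quasi-likelihood test was run with TMM factors and all 9 libraries in a single fit of the 3 groups. Calls are at a Benjamini-Hochberg adjusted p under 0.05 over all genes tested. SEs are approximate, from the fold change and the F statistic. The reads carry no molecular identifiers, so the bound for a gene at 0 reads (3 reads over the group) covers counting error only. Replicates are the 3 biological replicates per group that the labels state.

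Values in every library are given for called members and the 8 with the highest mean RPKM, and the 3 uncalled members with the smallest p in ok3407 against wild type are named. List genes are named when called, at most 3 per list and comparison. Any other gene named was picked with its values in view. The members and lists were chosen with earlier results of these data known. Alternatives were RLE, total library size and upper quartile scaling, no filter, a filter of 5 CPM in 3 libraries, a replicate block, DESeq2 (Wald test), limma-trend with a pseudocount of 1 on RPKM, the 6 libraries of a comparison alone, exon reads only, unique reads only, and each library left out. Scripts were tested on simulated data. The tools were DESeq2 1.42.0, edgeR 4.0.16 and limma 3.58.1 in R 4.3.3, and matplotlib 3.10.9, numpy 2.4.6 and pandas 2.3.3 in Python 3.11.15.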

Additional observations from a re-analysis of the deposited data

Results flagged for a closer look

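The change of cpl-1 against wild type differed between the alleles. It was 0.69 on the log2 scale in ok3407 and -0.37 in tm2655, and neither passed (edgeR, adjusted p = 0.0710 and 0.998). The difference of 1.05 is that of ok3407 against tm2655 given above, which passed edgeR's test (adjusted p = 0.0186). Each of the 3 ok3407 libraries was higher than any tm2655 library. The adjusted p was 0.0535 without tm2655 replicate 1, 0.0885 without tm2655 replicate 3 and 0.0700 without ok3407 replicate 2.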

How the results depend on the processing

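Members called lower in ok3407 against wild type numbered 2. They numbered 1 with total library size (asp-3), 1 without a filter (asp-3), 6 with DESeq2, 0 with limma-trend on RPKM, 1 with the 6 libraries alone (asp-14), and 0 to 3 when each library was left out. Members called higher there numbered 0, and 1 with total library size, 2 with DESeq2 (asp-11 and cpl-1) and 1 with limma-trend, with 0 to 0 when each library was left out. Against tm2655, members called lower numbered 0, and 1 with total library size, 2 without a filter, 5 with DESeq2, 1 with unique reads only and 0 to 3 when each library was left out. Members called higher against tm2655 numbered 1, and 0 to 1 when each library was left out. With the replicate number as a block, 4 members were called lower in ok3407 against tm2655 (asp-1, asp-3, asp-6 and asp-14), while against wild type cpr-8 lost its call (edgeR, adjusted p = 0.0755) and asp-14 gained one. The labels share only a number, so no pairing was assumed. Deviations from the group mean correlated at 0.03, 0.02 and 0.40 between same-numbered tm2655 and wild type libraries. They correlated at 0.14, 0.0045 and -0.11 for ok3407 and tm2655, and at -0.20, 0.05 and -0.24 for ok3407 and wild type. Among differently numbered libraries, tm2655 replicate 2 correlated at 0.33 with wild type replicate 1 and at -0.40 with wild type replicate 3. Deviations from a mean of 3 libraries constrain each other, so these values cannot decide on pairing.

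cpr-6 changed sign in ok3407 against wild type with total library size (0.10) and limma-trend (0.022), and its change ran from -0.38 to 0.14 when each library was left out, or -0.12 to 0.42 against tm2655. The cause was not tested for any of these. Total library size moved the median of all genes to 0.24 in ok3407 against wild type and the calls of all genes to 757 higher and 167 lower, against 534 and 467 with TMM factors, and limma-trend gave 731 and 220. Against tm2655 total library size gave 464 and 139, against 374 and 271. The 6 members without a test missed the filter on low counts.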
